A study of Homo sapiens with 6 samples.

Results

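Transcripts of the Wnt and β-catenin pathway were examined in NCI-H295A, a cell line grown from a human tumour of the adrenal cortex, either untreated or exposed to 8-Br-cAMP (1 mM) over 18 h. The analogue 8-Br-cAMP enters cells and stands in for the cAMP signal of the pituitary hormone ACTH. Each group had 3 Affymetrix arrays, numbered 1 to 3 in the labels, and all cells were grown in the same medium with 2% fetal calf serum. The pathway was taken as 44 genes chosen by name, from the ligands to the nuclear factors and target genes, and each was represented by its brightest probe set with a single gene symbol. Of the 44 genes, 41 had such a probe set, among 11963 genes in the table. FZD8, AXIN2 and TCF7 had none and are not analysed here. A mean log2 signal above 5.51, or a signal of 45.5, was required for testing, and 30 of the 41 genes met it. In a bulk culture, fewer cells of a kind and less RNA per cell cannot be told apart.

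Wnt proteins are secreted ligands that bind Frizzled receptors and the co-receptors LRP5 and LRP6. Without a ligand, a cytoplasmic complex of APC, axin, GSK3 and casein kinase 1 marks β-catenin for destruction. With a ligand, Dishevelled proteins help to disable that complex, and β-catenin enters the nucleus to act with TCF and LEF factors in place of TLE corepressors. In the adrenal cortex, Wnt signalling is known for maintaining the outer zone and its progenitor cells, while ACTH and cAMP favour the inner, cortisol-producing zone. The parental NCI-H295 line is known for a mutation that stabilises β-catenin, so its pathway is active without ligand.

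Upstream sequences were searched for the motifs of the 2 signals, since the treatment acts through cAMP and the pathway through TCF and LEF factors. The cAMP response element was searched as TGACGTCA and as its shorter core TGACG or CGTCA, and the TCF/LEF motif as CTTTGA or CTTTGT and their reverse complements TCAAAG and ACAAAG. A full element also counts as 2 overlapping cores. The 250 bases before the start from RefSeq, build GRCh38.p14, are shown for DKK1, which had the largest difference, for CTNNB1, the β-catenin gene, and for TLE1, whose arrays differed least within groups among the tested members. Capitals mark TCF/LEF matches in DKK1 and cAMP cores in the other two. DKK1 lies on the plus strand at chr10:52314031-52314280, CTNNB1 on the plus strand at chr3:41199255-41199504, and TLE1 on the minus strand at chr9:81689548-81689797.
DKK1: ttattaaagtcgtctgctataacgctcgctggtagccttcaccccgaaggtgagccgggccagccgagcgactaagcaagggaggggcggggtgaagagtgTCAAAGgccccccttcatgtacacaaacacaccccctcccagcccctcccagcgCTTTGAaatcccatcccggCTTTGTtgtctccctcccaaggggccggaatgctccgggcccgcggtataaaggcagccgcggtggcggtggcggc
CTNNB1: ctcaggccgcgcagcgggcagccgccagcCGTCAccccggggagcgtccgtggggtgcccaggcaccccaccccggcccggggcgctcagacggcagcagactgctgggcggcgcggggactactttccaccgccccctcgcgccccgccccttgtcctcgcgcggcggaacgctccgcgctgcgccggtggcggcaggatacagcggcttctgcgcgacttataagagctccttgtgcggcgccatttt
TLE1: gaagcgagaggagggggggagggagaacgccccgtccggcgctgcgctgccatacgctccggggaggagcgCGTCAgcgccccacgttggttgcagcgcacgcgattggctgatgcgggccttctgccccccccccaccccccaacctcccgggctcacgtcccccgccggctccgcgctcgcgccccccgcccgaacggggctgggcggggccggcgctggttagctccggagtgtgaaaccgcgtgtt
Windows of 300 bases, with 50 bases after the start, were listed for 30 of the 44 genes and held 42 starts. A TCF/LEF match was found in 9 of the 42 windows (21.4%), against 26.2% of all 35116 windows in the table. A cAMP core was found in 12 of them (28.6%, against 24.6% of all), and the full element in 1, that of DVL1 (1.85% of all). DKK1 was the 1 member with 3 TCF/LEF matches, a number reached by 0.886% of all windows. A match describes the letters and is not a binding site.

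The groups were compared with limma across 13329 probe sets, with p-values adjusted over all of them by the Benjamini-Hochberg method. As designed, without regard to the array numbers, 0 of 30 tested members passed an adjusted p of 0.05, as did 0% of all 7927 genes tested. At an unadjusted p under 0.05 there were 8 of 30, against 11.9% of all genes, and limma without variance moderation also called 0 members. With the array number as a block (the paired fit), 2 of 30 members passed, DKK1 and SFRP1, both higher, against 3.68% of all genes (1.73% higher, 1.96% lower), and 12 of 30 had an unadjusted p under 0.05, against 22.3%. The block leaves each log2 difference as it is and alters its error. The arrays numbered 1 stood apart in both groups. The ratio of 3' to 5' actin signal, which grows as RNA degrades, reached 5.72 on control 1 and 38.8 on 8-Br-cAMP 1, where the remaining 4 arrays had 1.93 to 2.41, and its part in the differences was not tested. Without both number 1 arrays, 14 of 30 members passed, 6 higher (DKK1, SFRP1, FZD4, WNT11, CTNNB1 and MYC) and 8 lower (SFRP4, FZD2, FZD7, DVL2, APC, LEF1, TLE1 and TLE2), against 33.3% of all genes (12.8% higher, 20.5% lower). Those p-values rest on 2 closely alike arrays per group and may measure only technical spread. The groups did not overlap for 9 of 30 members, 3 higher and 6 lower, against 19.9% of all genes (6.32% higher, 13.6% lower). The sign was the same in all 3 pairs for 19 of 30, 7 higher and 12 lower, against 44.7% of all genes. The series' design text called a gene by a 2-fold difference and an unadjusted p under 0.05, and 5 members met that rule (DKK1 and FZD4 higher, SFRP4, FZD7 and LEF1 lower), against 7.01% of all genes (2.64% higher, 4.38% lower). The median log2 difference was -0.085 over the 30 members and -0.14 over all genes. The difference was below 0 for 17 of 30 members and for 61.3% of all genes. Of 12 listed cortex markers 9 had a row, all 9 above the filter level by their mean over the 6 arrays, though the treated mean of MC2R was below it. Above the level were also 0 of 5 medulla, 2 of 5 fibroblast and 2 of 4 blood markers with a row, so passing it does not by itself mark a cell type. The summed signal in controls was 7867.1 to 27090.1 for cortex, 69.9 to 155.1 for medulla, 191.5 to 387.2 for fibroblast and 137 to 159.7 for blood markers. Among 5 endothelial markers the summed signal was 205.5 to 245.8 in controls and 307.2 to 464 after 8-Br-cAMP, and the markers did not move together. VWF was at 13.2, 17.8 and 123.8 in controls and at 224.5 to 292.3 after treatment, TEK lay the other way at 60.7 to 106 and then 11.3 to 20.7, PECAM1 differed by -0.017, and CDH5 was at 11.5 or less on every array. The part of these markers in the differences below was not tested.

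**Figure D1:**
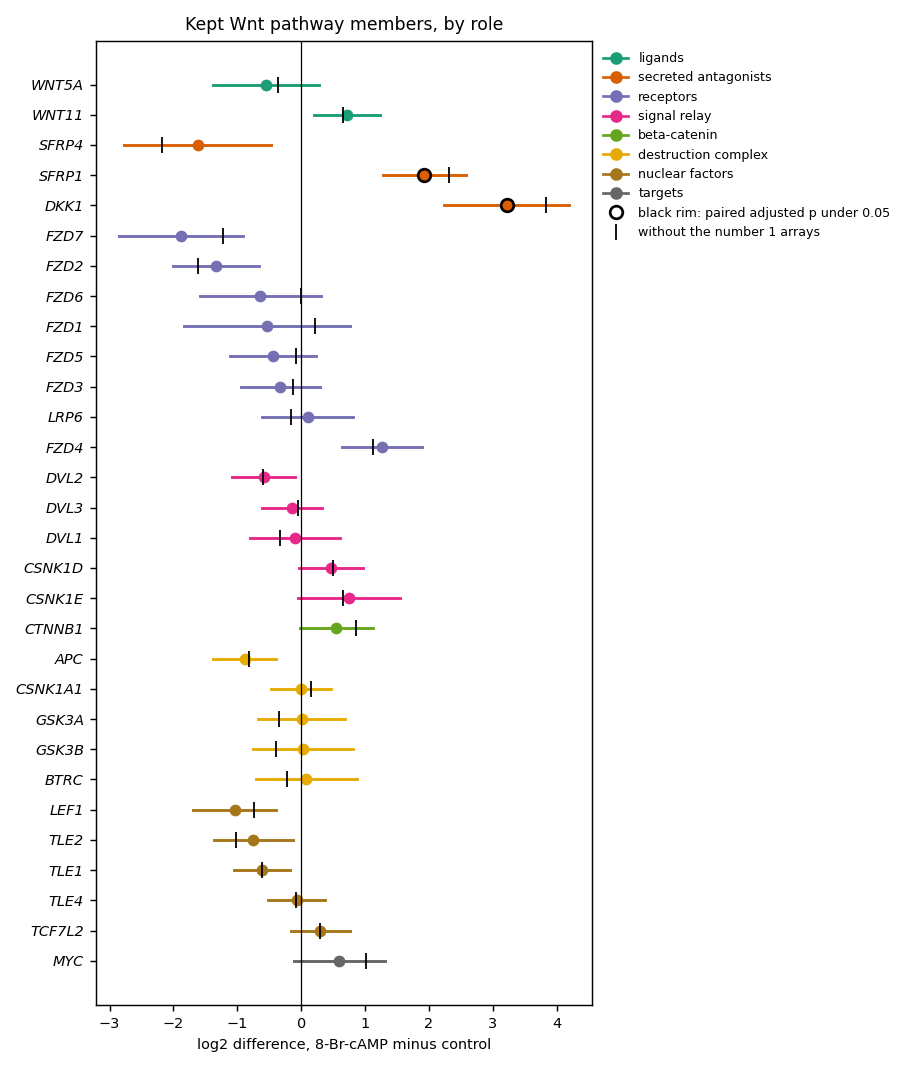
Log2 difference (8-Br-cAMP minus control) of the 30 tested members, grouped by role, with the 95% interval of the paired fit as a line. Black ticks give the difference without the number 1 arrays; DKK1 and SFRP1, with black rims, had a paired adjusted p under 0.05.

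Both members that passed the paired fit were secreted antagonists. These proteins work outside the cell, where the DKK family blocks LRP co-receptors and the SFRP family binds Wnt ligands. DKK1 (chr10:52314281-52317657, gene coordinates from RefSeq, GRCh38.p14) had a signal of 36.0, 70.1 and 56.7 on controls 1, 2 and 3, and of 143.5, 879.2 and 914.5 after 8-Br-cAMP. All treated arrays were above all controls, and the treated number 1 array was far below the other two. The mean log2 signal went from 5.71 ± 0.49 (SD, n = 3) to 8.93 ± 1.53, a difference of 3.22 or 9.31-fold (paired SE 0.41, 95% interval 2.24 to 4.19, limma paired adjusted p = 0.0183). Without the block the interval was 1.51 to 4.93 (limma adjusted p = 0.173). It was higher in 3 of 3 pairs, with differences of 1.99, 3.65 and 4.01. Its control signals lay near the filter level, and a fold from so low a signal is imprecise.

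SFRP1 had signals of 453.7, 1411.9 and 1541.9 in controls and of 1013.8, 7139.2 and 7473.8 after 8-Br-cAMP. The groups overlapped, because the treated number 1 array lay below controls 2 and 3, while each treated array exceeded the control of its number. The log2 signal was 9.96 ± 0.98 (SD, n = 3) in controls and 11.89 ± 1.65 after treatment, a rise of 1.93 or 3.80-fold (paired SE 0.27, 95% interval 1.28 to 2.57, limma paired adjusted p = 0.0237, and 0.466 without the block). Both other SFRP1 probe sets rose by more, 2.77 and 2.67 on the log2 scale, with limma paired adjusted p of 0.00679 and 0.00823. SFRP1 is therefore the 1 member with 3 probe sets that all passed the paired fit.

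SFRP4 (chr7:37905932-37916817) lay the other way. Its signals were 80.3, 131.1 and 121.3 in controls and 56.0, 20.4 and 38.2 after 8-Br-cAMP, with no overlap. The log2 difference was -1.62 (paired 95% interval -2.78 to -0.47, limma paired adjusted p = 0.125), and the treated mean lay below the filter level. Without the number 1 arrays it was -2.18 (limma adjusted p = 0.00545). DKK2 and DKK3 stayed below the filter level, DKK2 at 11.8 or less and DKK3 at 49.2 or less on every array, and were not tested.

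**Figure D2:**
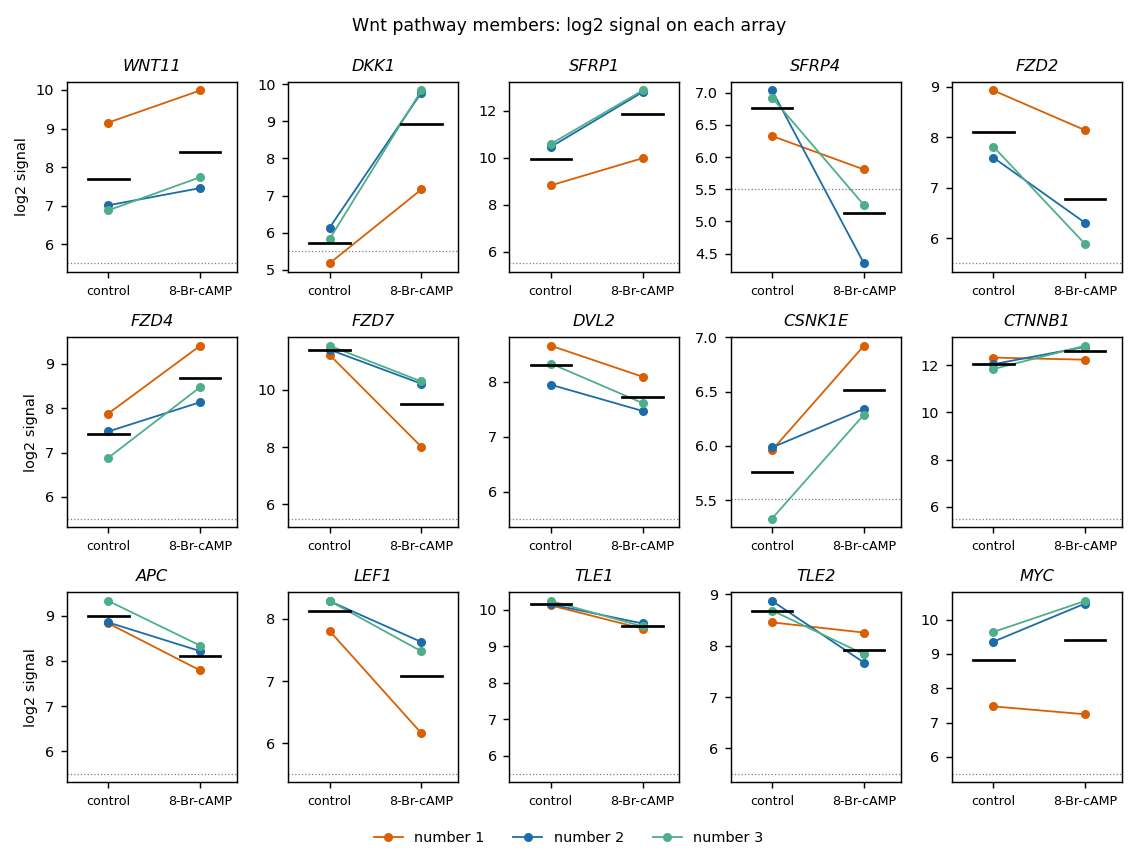
Log2 signal of 15 members on each array, joined by array number (colours), with black bars for group means and a dotted line at the filter level of 5.51. DKK1 and SFRP1 are higher after 8-Br-cAMP in every pair, and the number 1 arrays lie apart in both groups for SFRP1 and MYC and in the treated group alone for FZD7.

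Among the receptors, 10 of 11 genes had a probe set and 8 were tested. None passed the paired fit, in which 3 of 8 had an unadjusted p under 0.05 (FZD2, FZD4 and FZD7), against 22.3% of all genes, with limma paired adjusted p of 0.0593, 0.0568 and 0.0607. Without the number 1 arrays FZD4 was higher and FZD2 and FZD7 lower. FZD7 (chr2:202033855-202038441), a Frizzled receptor known from stem and progenitor cells, had signals of 2393, 2715.5 and 2986.7 in controls and of 258.1, 1188.1 and 1255.7 after 8-Br-cAMP. Every treated array was below every control, and the lowest by far was the number 1 array. The log2 difference was -1.89 (paired 95% interval -2.85 to -0.92), and -1.22 without the number 1 arrays (limma adjusted p = 0.000121). The other FZD7 probe set fell by 1.42 and passed the paired fit (limma adjusted p = 0.0346).

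FZD2 (chr17:44557484-44561262) had signals of 486.2, 193.9 and 225.4 in controls and of 282.0, 79.2 and 59.2 after 8-Br-cAMP. The groups overlapped through the brighter number 1 arrays, and all 3 pairs were lower. The log2 difference was -1.34 (paired 95% interval -2.01 to -0.66), and -1.61 without the number 1 arrays (limma adjusted p = 0.00194). FZD4 (chr11:86945679-86955395), which is also the receptor of the ligand norrin, had signals of 235.7, 178 and 117.9 in controls and of 681.8, 281.3 and 356.3 after treatment. All treated arrays exceeded all controls, and the log2 difference was 1.26 (paired 95% interval 0.63 to 1.89), with 1.13 without the number 1 arrays (limma adjusted p = 0.00809). The Frizzled genes thus had differences of both signs.

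FZD1, FZD3, FZD5 and FZD6 had log2 differences from -0.64 to -0.33, with limma paired adjusted p from 0.409 to 0.617. In each of these 4, pair 1 lay furthest below 0. FZD6 had signals of 270, 504.2 and 539.2 in controls and of 72.5, 503.8 and 532.2 after 8-Br-cAMP, so that pairs 2 and 3 were nearly equal and pair 1 was not. FZD5 had signals of 354, 396.7 and 426.2 in controls and of 158.7, 397 and 376.6 after treatment, the same picture. FZD1 had signals of 258.4, 61.1 and 159.1 in controls and of 62.2, 120.1 and 109.9 after treatment, with no order between groups. The co-receptor LRP6 differed by 0.099 (paired 95% interval -0.61 to 0.81). FZD9 and LRP5 were below the filter level, although FZD9 reached 103.6 on the treated number 1 array.

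Of 6 ligands, 2 were tested. WNT11 (chr11:76186325-76210761), a ligand of β-catenin-independent signalling, had signals of 570.3, 129.1 and 117.9 in controls and of 1015.3, 175.8 and 213.8 after 8-Br-cAMP. Both number 1 arrays were far above the rest, so the groups overlapped, yet each pair was higher by 0.83, 0.45 and 0.86. The mean log2 difference of 0.71 did not pass the paired fit (95% interval 0.19 to 1.23, limma adjusted p = 0.131), but passed without the number 1 arrays (0.65, limma adjusted p = 0.0380). WNT5A, of the same branch, had signals of 130.7, 63.8 and 63.6 in controls and of 68.2, 43.2 and 57.3 after treatment. The groups overlapped and its log2 difference was -0.55 (paired 95% interval -1.38 to 0.28, limma adjusted p = 0.415). WNT2, WNT4, WNT5B and WNT10B were below the filter level, with WNT2 reaching 79.3 and WNT10B 72.7 on control 2. WNT4 and WNT5B were at 19.3 or less and 7.3 or less on every array.

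In the relay from receptor to destruction complex, 0 of 5 tested genes passed the paired fit (1 at an unadjusted p under 0.05, against 22.3% of all genes). DVL2 (chr17:7225342-7234517), a Dishevelled scaffold, had signals of 403.6, 246.6 and 322 in controls and of 272.6, 177 and 195.5 after 8-Br-cAMP, overlapping ranges but 3 lower pairs. Its log2 difference was -0.59 (paired 95% interval -1.08 to -0.092, limma adjusted p = 0.176), and -0.60 without the number 1 arrays (limma adjusted p = 0.0399). DVL1 and DVL3 differed by -0.098 and -0.14. CSNK1E, a casein kinase that acts on Dishevelled, had signals of 62.3, 63.4 and 40.3 in controls and of 121.2, 81 and 78.1 after treatment, with no overlap. Its log2 difference of 0.76 did not pass (paired 95% interval -0.043 to 1.55, limma adjusted p = 0.255), nor did the 0.47 of CSNK1D. The CSNK1D signals were 227.9, 279.9 and 379.6 in controls and 306.7, 457.3 and 462 after treatment. The other kept CSNK1D probe set lay the other way, at -0.23 (limma paired adjusted p = 0.643).

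CTNNB1 (chr3:41199505-41240443), which encodes β-catenin, had signals of 5101, 4204.3 and 3643.7 in controls and of 4799.8, 6993.6 and 7235.3 after 8-Br-cAMP. Pairs 2 and 3 were higher by 0.73 and 0.99, and pair 1 differed by -0.088, so the groups overlapped. The mean log2 difference was 0.55, or 1.46-fold (paired 95% interval -0.026 to 1.12, limma adjusted p = 0.253). Without the number 1 arrays it was 0.86 (limma adjusted p = 0.000789).

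In the destruction complex, the groups did not overlap for 1 of 5 tested genes, APC, a share close to the 19.9% of all genes. APC (chr5:112707498-112846239) is the tumour suppressor scaffold that holds β-catenin for phosphorylation. Its signals were 454.3, 460.8 and 640 in controls and 221.2, 297 and 323.1 after 8-Br-cAMP. The log2 difference was -0.89, or 1.85-fold lower (paired 95% interval -1.38 to -0.39, limma adjusted p = 0.0757, and 0.0101 without the number 1 arrays). All 4 kept APC probe sets were lower, by log2 differences from -1.81 to -0.89, and 0 of them passed the paired fit. The -1.81 came mostly from pair 1, with a signal of 2.9 on 8-Br-cAMP 1. The pairs of that probe set differed by -4.45, -0.65 and -0.32. The kinase genes GSK3A, GSK3B and CSNK1A1 differed by 0.0067, 0.035 and -0.011, and the ubiquitin ligase gene BTRC by 0.080, with paired intervals that spanned 0. The interval of GSK3B ran from -0.75 to 0.82, so the data were compatible with a change of either sign within those limits. Its signals were 136.7, 134.8 and 150.7 in controls and 251.9, 103.9 and 114.1 after treatment. On their brightest probe sets GSK3A, GSK3B and BTRC were higher in pair 1 and lower in pairs 2 and 3. The other kept GSK3A probe set differed by 0.81 (limma paired adjusted p = 0.312), with 0.61, 1.84 and -0.0057 in pairs 1, 2 and 3. AXIN1 was below the filter level.

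Of the nuclear factors, 5 of 7 genes were tested, and 0 passed the paired fit. In 3 of the 5 the groups did not overlap, all lower after 8-Br-cAMP, against 13.6% of all genes. LEF1 (chr4:108047548-108168932), a DNA-binding partner of β-catenin and a known target of the pathway, had signals of 223.7, 311.8 and 312.5 in controls and of 71.5, 197.7 and 178.2 after treatment. Its log2 difference was -1.04, or 2.05-fold lower (paired 95% interval -1.69 to -0.39, limma adjusted p = 0.0956, and 0.00852 without the number 1 arrays). TCF7L2, another DNA-binding partner, differed by 0.30 (paired 95% interval -0.16 to 0.77), and its 6 kept probe sets were split, 3 higher and 3 lower.

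TLE1 and TLE2 encode Groucho-type corepressors that hold TCF targets silent. TLE1 (chr9:81583683-81689547) had signals of 1113.7, 1135.8 and 1212 in controls and of 716.1, 789.6 and 746.2 after 8-Br-cAMP, with close agreement within each group. Its log2 signal was 10.17 ± 0.06 (SD, n = 3) in controls and 9.55 ± 0.07 after treatment, a difference of -0.62 (paired 95% interval -1.06 to -0.18, limma adjusted p = 0.123, and 0.00429 without the number 1 arrays). TLE2 (chr19:2997644-3047635) had signals of 349.8, 466.9 and 410.4 in controls and of 304.8, 203.6 and 228 after treatment. Its difference of -0.75 (paired 95% interval -1.36 to -0.13, limma adjusted p = 0.167, and 0.00178 without the number 1 arrays) came mostly from pairs 2 and 3. The other 2 kept TLE1 probe sets differed by -0.46 and -0.49 with limma paired adjusted p of 0.447 and 0.443, and each had a pair at or above 0 (0.38 in pair 1 and 0.0033 in pair 2). TLE4 differed by -0.071 on its brightest probe set (paired 95% interval -0.52 to 0.38). Its other kept probe sets differed by -0.92 and -0.13 (limma paired adjusted p = 0.441 and 0.831). The pairs behind the -0.92 were split, at -2.88, 0.42 and -0.31. TLE3 was below the filter level.

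**Figure D3:**
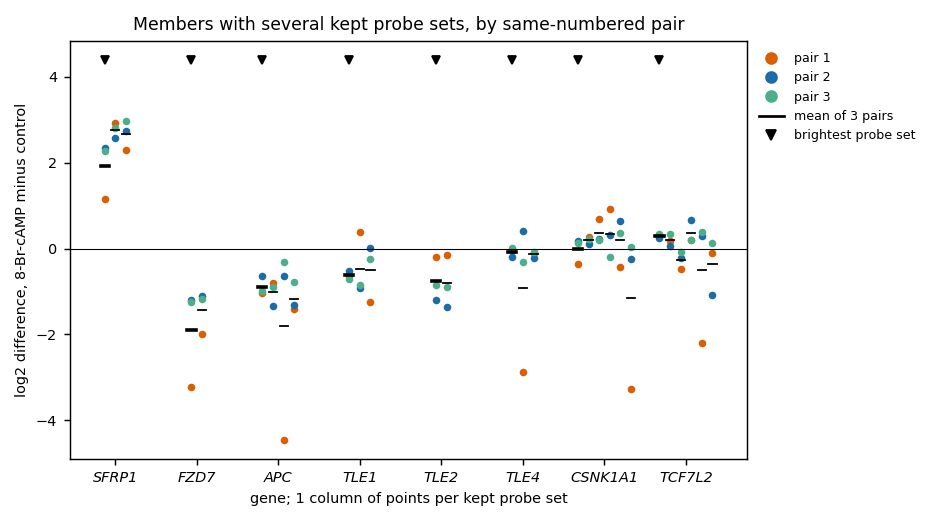
Log2 difference (8-Br-cAMP minus control) in each same-numbered pair for every kept probe set of 8 members, with the mean of the 3 pairs as a bar and a triangle over the brightest probe set. All SFRP1 probe sets are higher and all APC and FZD7 probe sets lower in each pair, while those of CSNK1A1 and TCF7L2 have both signs.

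Of the 2 listed targets with a probe set, MYC and CD44, MYC was tested. MYC, a growth-promoting transcription factor, had signals of 177.6, 656.3 and 797.9 in controls and of 151.5, 1419.3 and 1496 after 8-Br-cAMP. Pairs 2 and 3 were higher by 1.11 and 0.91, whereas pair 1 differed by -0.23 with both arrays far below the rest. The mean log2 difference was 0.60 (paired 95% interval -0.11 to 1.31, limma adjusted p = 0.304, and 1.01 with adjusted p = 0.000837 without the number 1 arrays). CD44, a hyaluronan receptor, had 0 of 8 probe sets above the filter level. Its brightest probe set had signals of 41.9, 59.2 and 17.6 in controls and of 20.2, 4.8 and 35 after treatment. Of the 13 members with several kept probe sets, 9 had all of them on the same side of 0.

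The rest of the pathway was read from a list of 115 further genes, of which 84 had a probe set and 61 were tested. In the paired fit 1 rose and 4 fell, against 1.73% and 1.96% of all genes, and 56 did not pass. Of the 4 that fell, 3 were receptors, out of 7 tested. LGR5 (chr12:71439129-71586310) encodes an R-spondin receptor that strengthens Wnt signals and is itself a known β-catenin target. Its signals were 1585.3, 600.1 and 571.2 in controls and 91.9, 121.9 and 126.1 after 8-Br-cAMP. It fell by 2.86 on the log2 scale, or 7.27-fold (paired SE 0.40, 95% interval -3.81 to -1.91, limma adjusted p = 0.0232, and 0.0910 without the block). Without the number 1 arrays, of which control 1 was the brightest of all, the difference was -2.24 (limma adjusted p = 3.11e-05). Its second probe set differed by -1.37 (limma paired adjusted p = 0.0805).

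ROR1 (chr1:63774017-64181498), a receptor tyrosine kinase for WNT5A-type ligands, had signals of 320.4, 378.3 and 361.5 in controls and of 95.3, 64.7 and 59.3 after 8-Br-cAMP. It fell by 2.30, or 4.93-fold (paired 95% interval -2.95 to -1.66, limma adjusted p = 0.0144, and 0.0511 without the block). RYK (chr3:134157133-134250859), another Wnt receptor of the kinase-like type, had signals of 742.7, 703.6 and 674.3 in controls and of 325, 367.4 and 339.1 after treatment. It fell by 1.04 (paired 95% interval -1.51 to -0.57, limma adjusted p = 0.0474, and 0.165 without the block). The other kept RYK probe sets differed by -1.24 and -1.42, with overlapping groups and limma paired adjusted p of 0.0583 and 0.105. On the brightest probe sets of these 3 receptors the groups were far apart, and each fell in 3 of 3 pairs.

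Among 12 tested targets, FOSL1, an AP-1 factor, rose by 2.26 (paired 95% interval 1.57 to 2.95, limma adjusted p = 0.0183). Its signals were 22, 44.4 and 64.4 in controls and 97.5, 247.9 and 287.9 after 8-Br-cAMP, and it met the filter only through the treated arrays. NRCAM, a cell adhesion gene, fell by 2.99 on its brightest probe set (limma paired adjusted p = 0.00823). The other kept NRCAM probe set differed by -1.57 and did not pass (limma paired adjusted p = 0.164), with only -0.22 in pair 1. The other named genes did not pass the paired fit. TBL1XR1, a corepressor exchange factor, had signals of 141.7, 592.5 and 667.3 in controls and of 14.7, 357.9 and 279.7 after treatment. It differed by -1.75, and by -0.99 without the number 1 arrays (limma adjusted p = 0.00257). The TCF factor gene TCF7L1 differed by -1.08, with a treated mean below the filter level, and the tankyrase gene TNKS by -0.77. WLS, which carries Wnt proteins to the cell surface, differed by 0.68, the casein kinase 2 gene CSNK2A1 by 0.62, WNT6 by -0.23 and CER1 by -0.19.

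**Figure D4:**
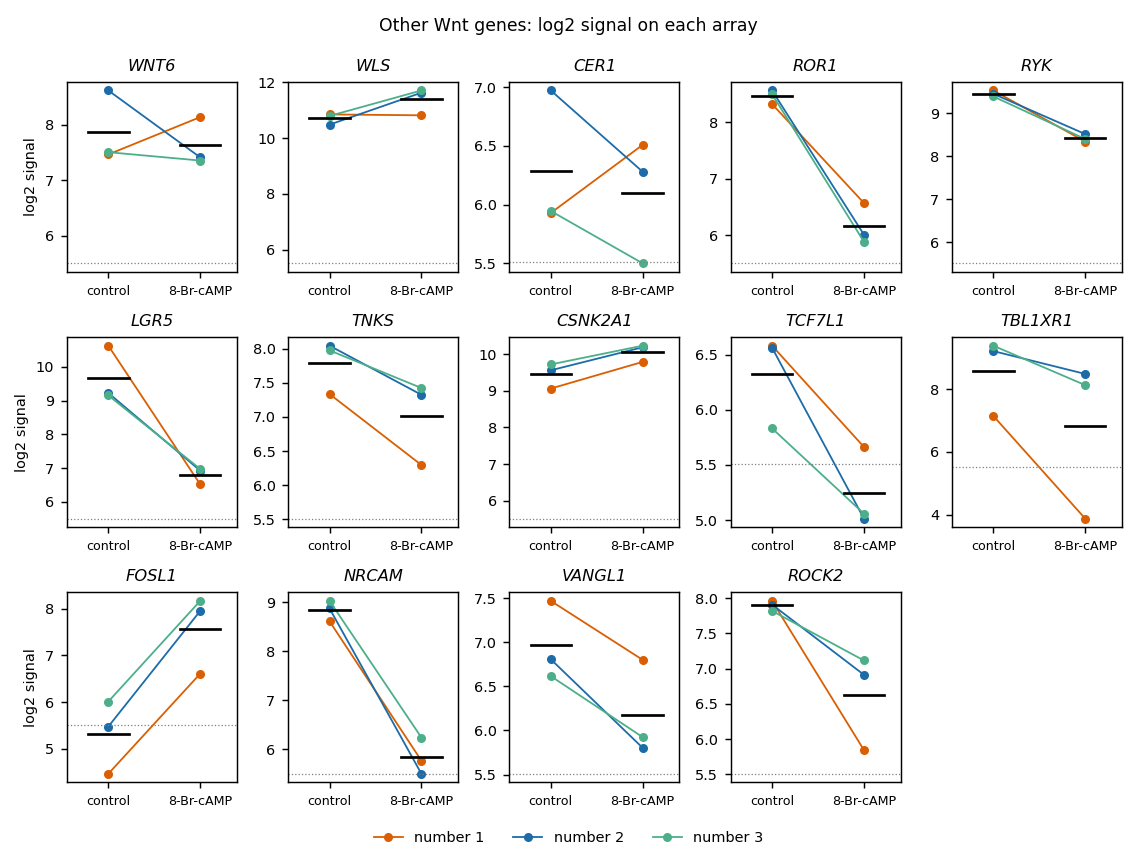
Log2 signal of 14 further Wnt genes on each array, joined by array number (colours), with black bars for group means and a dotted line at the filter level. ROR1, RYK, LGR5 and NRCAM are lower and FOSL1 higher after 8-Br-cAMP in every pair, with no overlap between groups.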

How the data were processed

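RNA of 6 samples was measured on Affymetrix arrays. The authors deposited linear signal intensities, made with GCOS 1.3 per the submitters' processing notes. Their 2% trimmed means lay between 249.996 and 250.155, so they were used as deposited, in log2. Such scaling hides a change shared by most transcripts. Probe sets were named by GEO's platform annotation (19064 of 22215 with 1 symbol, 1043 with several, 2108 not listed), and those above the 40th percentile of mean log2 signal were kept. The fits used R 4.3.3 and limma 3.58.1 (lmFit, eBayes with trend, two-sided), without a block and with the array number as a block. After subtracting group means, arrays sharing a number correlated at 0.603, 0.378 and 0.538, all over 0.1, and were treated as pairs. Control 3 correlated as well with 8-Br-cAMP 2 (0.547) as with 8-Br-cAMP 3, so the correlations set number 1 apart but do not tell numbers 2 and 3 from each other. This pairing comes from the data, not the labels. The labels do not tell whether cultures were separate, and p-values then describe only the scatter of these 6 samples, which may be technical. Fits were tested on simulated data.

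Members and lists were chosen with earlier results of these data known. The rule named, with all values, CTNNB1, APC, AXIN2 (no probe set), LEF1, MYC and CD44, those passing any of the 3 fits, and those whose groups did not overlap with 1 sign in all pairs. Further genes named are those passing the paired fit and the 2 largest differences per role. The signals of FZD1, FZD5, FZD6, WNT5A, CSNK1D and GSK3B were added, and SOX4, CELSR2, CELSR3 and DAAM1 named, after their values were seen. The alternatives were other scalings, filters, pseudocounts, variance models and probe set summaries, and arrays left out. Combining the block with each pair left out was added after seeing the data.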

Additional observations from a re-analysis of the deposited data

How the results depend on the processing

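Without the block, 0 members passed under every scaling, filter, pseudocount and variance model tried, and 0 to 14 with arrays left out (2 without 8-Br-cAMP 1, DKK1 and FZD7, and 14 without both number 1 arrays). The paired count was 2, and combined with quantile normalization 4 (FZD4 and FZD7 joined), with a common median 1 (DKK1), with no filter 2, with the 60th percentile filter 2, with a pseudocount of 16 it was 3 (FZD2 joined), with robust variances 2 and without the trend 0. The DKK1 call was lost in 1 and that of SFRP1 in 2 of these 7 combinations. With a pair left out the paired count was 3 to 15. DKK1 (2.82 to 3.83), SFRP1 (1.72 to 2.31) and FZD7 (-2.23 to -1.22, log2 differences) passed each time. FZD7 did not pass the paired fit with all arrays, so passing with a pair left out was not particular to the called members. Without the block and both number 1 arrays, 33.3% of all genes passed. The other counts by setting, those with arrays or a pair left out among them, were not set against all genes. They are not a result about the members.

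Of the further Wnt genes, 2 passed without the block under quantile normalization, a common median, the 60th percentile filter, a pseudocount of 16, a floor at the 20th percentile and the mean of a gene's probe sets, and 0 to 28 with arrays left out. The paired count was 5, and 4, 3, 5, 4, 5, 3 and 5 with quantile normalization, common median, no filter, 60th percentile filter, pseudocount, no trend and robust variances. It was 5 to 33 with a pair left out. These counts by setting were again not set against all genes and are not a result about the further Wnt genes. ROR1 and NRCAM passed all 7 combinations, LGR5 passed 5 and RYK 4. FOSL1 was tested in 6 of them and passed all 6. Over all kept probe sets the median difference was -0.13, and it became -0.031 with quantile normalization and 0.094 with a common median, while paired calls over all probe sets went from 207 higher and 221 lower to 103 and 39 with a common median.

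Signs turned for CER1 with quantile normalization (0.032) or a common median (0.039), both also with the block. They also turned with arrays left out, where the log2 difference ran from -0.084 (without 8-Br-cAMP 1) to 1.45 for WNT11, from -0.079 (without control 1) to 1.69 for MYC, from -0.68 to 0.26 for WNT6 and from -0.57 to 0.16 for CER1 (-0.57 to 0.067 with the block). The causes were not tested. Precision is limited by the small number of arrays.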

Other observations

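Planar polarity genes, which steer the cytoskeleton through a Wnt branch without β-catenin, had no member that passed. Of 12 listed, 8 were tested, 0 passed the limma paired fit (4 at an unadjusted p under 0.05, against 22.3% of all genes), and 6 of the 8 differences were negative, against 61.3% of all genes, with a median log2 difference of -0.63, against -0.14 over all genes. ROCK2, a kinase of actin contraction, had signals of 249.1, 240.3 and 225.8 in controls and of 57.5, 120.5 and 138.7 after 8-Br-cAMP. These did not overlap, and the log2 difference was -1.27 (paired 95% interval -2.05 to -0.49, limma adjusted p = 0.0914). The other kept ROCK2 probe set differed by only -0.096 (limma paired adjusted p = 0.922) and was higher by 0.89 in pair 1. VANGL1, a membrane scaffold, differed by -0.79 and was lower in 3 of 3 pairs. CELSR2 and CELSR3, atypical cadherins, differed by -0.68 and -0.70. DAAM1, a formin that binds Dishevelled, had signals of 170.8, 484.3 and 517.9 in controls and of 89, 1308.7 and 1175.9 after treatment. It was higher by 1.43 and 1.18 in pairs 2 and 3 and differed by -0.94 in pair 1.

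SOX4, a transcription factor listed among the targets, had 4 kept probe sets, all lower, with log2 differences from -2.09 to -0.90. The brightest did not pass the paired fit (-1.42, limma adjusted p = 0.134), while another did (-2.09, limma adjusted p = 0.0246).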
